A study of Mus musculus with 13 samples.

Results

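Spinal cord antigen-presenting cells (APCs), which the labels describe as monocyte-derived, were compared with spinal cord monocytes by mRNA sequencing. Members were the genes with an RPKM of at least 5 in either library, where RPKM relates the reads of a gene to its length and to the depth of the library. Of 21073 genes in the table, 7499 passed. Each cell population had 1 library, so these 2 of the 13 libraries of the series carry no replicate and no test was made. Both came from STAT5 tetramer-deficient (DKI) mice on the C57BL/6J background. DKI mice carry STAT5 that forms dimers but not tetramers, and no wild-type myeloid library was analysed here, so a comparison of these cells by genotype was not made. Experimental autoimmune encephalomyelitis (EAE), a mouse model of multiple sclerosis, had been induced with the myelin peptide MOG35-55 in CFA (complete Freund's adjuvant) plus pertussis toxin (250 ng per injection). The cells were sorted on day 14. The number of mice behind each library, any pooling and the sort markers are not stated in the labels. The other myeloid library, of bone marrow monocytes from DKI mice treated and sorted the same way, is given beside them. Levels are log2(RPKM + 1), and a difference is the APC level minus the monocyte level, so 1 stands for 2-fold and 2 for 4-fold on that scale.

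In EAE, classical monocytes leave the blood, enter the spinal cord and differentiate into macrophage-like and dendritic cell-like cells that can present myelin peptide to T cells. Loading of peptide onto MHC class II molecules takes place in acidic endosomes with the help of the invariant chain and the H2-DM and H2-O accessory molecules. Dendritic cells that mature raise the chemokine receptor CCR7, which guides them towards lymph nodes, and can secrete CCL17 and CCL22, the ligands of CCR4. Microglia are resident macrophages of the cord that arise apart from monocytes. They too can express class II genes, so their markers were followed in both libraries.

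The libraries were close to each other. The median difference over the 7499 genes was 0.03 and 91.8% of genes lay within 1.5-fold. In the APC library 116 genes were at least 2-fold higher (1.55% of genes past the filter) and 71 were at least 2-fold lower (0.947%). Of these 187 genes, 163 were 2- to 4-fold apart, 98 of them higher and 65 lower. The other 24 were 4-fold apart, 18 higher (0.24%) and 6 lower (0.08%). Genes higher in APCs had a median level of 2.49 in monocytes and 3.998 in APCs. Of these 116, 59 had an RPKM under 5 in monocytes and so passed the filter through the APC library alone, which partly fixes their low level in monocytes. Lower genes had medians of 5.63 in monocytes and 4.13 in APCs, and 13 of the 71 were under an RPKM of 5 in APCs. Close inside the 2-fold limit lay Apol7c (1.02) and Wfdc21 (-1.0004), and close outside it Fads1 (0.9987) and Mmp19 (-0.9987).

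**Figure D1:**
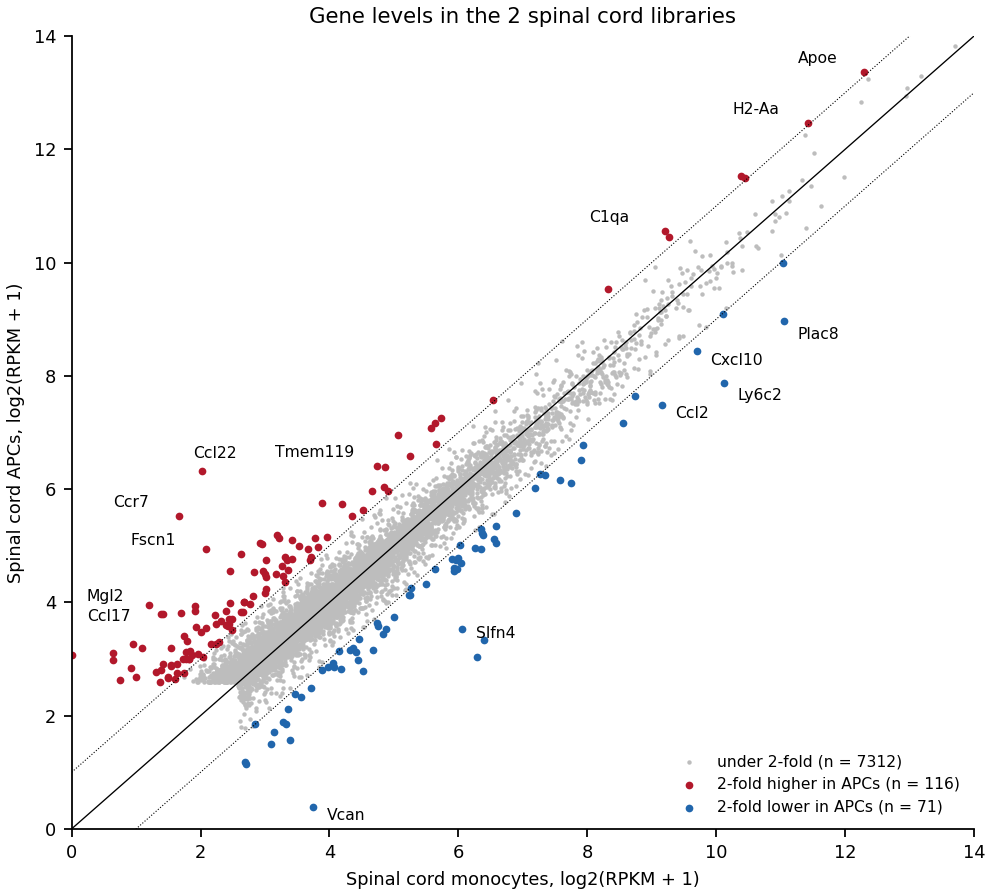
Level of each of 7499 genes in spinal cord monocytes (x axis) and spinal cord APCs (y axis), both log2(RPKM + 1), 1 library each. The solid line marks equal levels and the dotted lines 2-fold. The 116 genes higher in APCs have a median of 2.49 on the x axis, and the 71 lower genes one of 5.63.

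Counting error was small for most of these genes and larger for those with few reads. Estimated read totals were 26400000 for the spinal cord monocytes and 24300000 for the APCs, within a range of 12600000 to 31800000 over the 13 libraries. A 95% exact binomial interval of the RPKM ratio could be formed for 179 of the 187 genes. It excluded 1 for all 179, and it lay wholly past 2-fold for 164 of them. The genes had been picked as 2-fold apart on these same values, which largely fixes that the interval excludes 1. These intervals, printed in parentheses after each fold below, cover counting error only. They say nothing of variation between animals or sorts. The series holds pairs of libraries of the same group only among its cultured Th17 cells (T helper cells that make interleukin-17). These are wild-type cells, DKI cells, and DKI cells labelled as without or with CCL17, and each pair lies within a single group. In 8 such pairs, 9 to 492 genes were 2-fold apart under the same filter (0.0993% to 5.43%), and 2 to 84 were 4-fold apart. The 187 and 24 genes of the cord comparison lie inside both ranges, so the counts alone do not set these libraries apart from libraries of a single group in another cell type. Spinal cord and bone marrow monocytes, which include the same monocyte library, were 2-fold apart in 2494 of 8182 genes (30.5%).

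**Figure D2:**
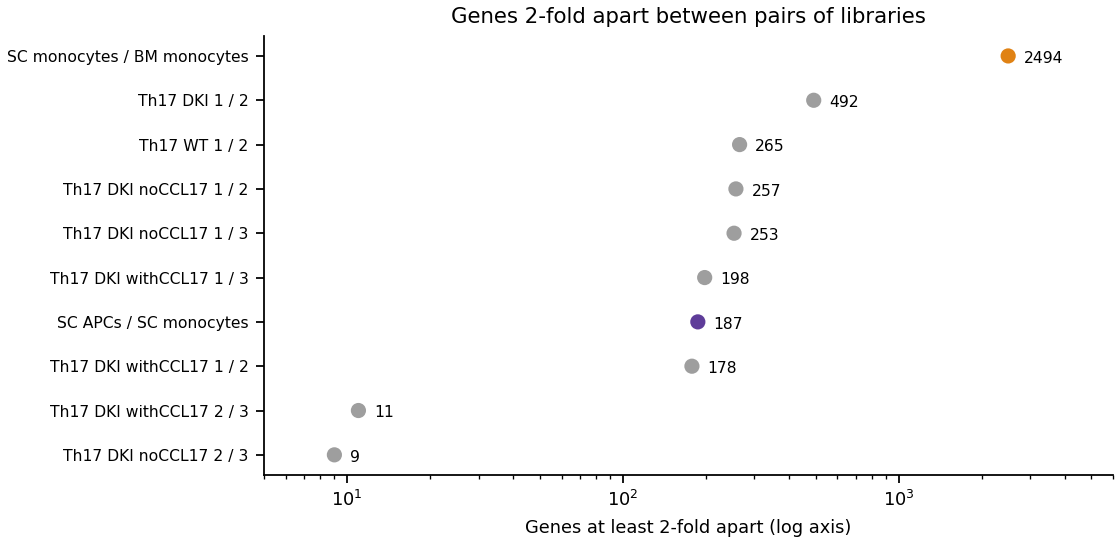
Number of genes at least 2-fold apart between pairs of libraries (log axis), for 8 pairs of the same Th17 group (grey), the spinal cord APCs and monocytes (purple) and monocytes of spinal cord (SC) and bone marrow (BM) (orange). The cord pair, at 187, lies within the Th17 range of 9 to 492, and the pair from different tissues is at 2494.

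Genes of mature, migratory dendritic cells led the list of genes higher in APCs. Of 28 such genes past the filter, 8 were 2-fold higher and none was 2-fold lower, with a median of 0.55 against 0.03 over all genes. Over all genes past the filter 1.55% were 2-fold higher and 0.947% 2-fold lower, the shares to set beside this and later list counts. Ccr7 (Entrez 12775), the receptor for lymph node chemokines, was at 1.67 in cord monocytes and 5.53 in APCs, and at 0.07 in the bone marrow library. Fscn1, which encodes the actin-bundling protein fascin of dendritic cell protrusions, was at 0.08, 2.09 and 4.94, a 9.14-fold difference between the cord libraries (7.96 to 10.5). Cacnb3, a calcium channel subunit gene, was at 0.64 and 2.98 in the cord libraries, 12.3-fold apart (9.01 to 17.1). Il12b, the p40 subunit of interleukin-12 and interleukin-23, was at 0.75 and 2.63, 7.53-fold apart (5.20 to 11.1) over an estimated 34 and 234 reads. The protease inhibitor gene Serpinb6b was 7.93-fold higher (6.37 to 9.93). All 5 had an RPKM under 5 in cord monocytes and so passed the filter through the APC library alone. The same was true of Ccl22 and Ccl17, which are also on this list. Other maturation genes were not apart to this degree. Cd83 was at 6.90 and 7.43, Relb at 5.37 and 5.41, and Cd274, the gene of the checkpoint ligand PD-L1, at 8.34 and 7.80. The summed RPKM of the 32 listed genes was 2489 in monocytes and 2512 in APCs, since abundant members did not share the difference.

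Genes of the conventional dendritic cell lineage showed the same split. Of 15 past the filter, 7 were 2-fold higher and none 2-fold lower (median 0.48). Among the higher ones Mgl2, Clec10a, Klrd1 and Kmo had an RPKM under 5 in cord monocytes and passed through the APC library alone. With an RPKM of at least 1 as the filter, 25 passed and the median was 1.16. Mgl2 and Clec10a, neighbouring genes for galactose-binding lectins of dendritic cells and macrophages, were 11.1-fold (8.43 to 15.1) and 2.55-fold (2.13 to 3.06) higher. Klrd1, which encodes CD94 and is shared with natural killer cells, was at 0.64 and 3.10, from an estimated 13 and 165 reads. Itgax, the CD11c integrin gene, was at 4.85 and 6.04, and Kmo, an enzyme gene of tryptophan breakdown, at 1.42 and 2.92. The defining transcription factor gene Zbtb46 stayed below the filter in both libraries, at 0.32 and 1.48, although its estimated 22 and 145 reads differed 7.28-fold (4.55 to 11.8). Flt3 (1.66 and 2.15) and Irf4 (1.70 and 2.38) were also below the filter. Irf8 (7.25 and 6.98), Id2 (9.48 and 9.22) and Batf3 (3.19 and 3.10) differed by less than 1.5-fold. Cd24a, a surface glycoprotein gene, was lower in APCs (6.37 and 5.59). In bulk RNA, a larger share of cells of a type and more RNA per cell cannot be told apart.

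**Figure D3:**
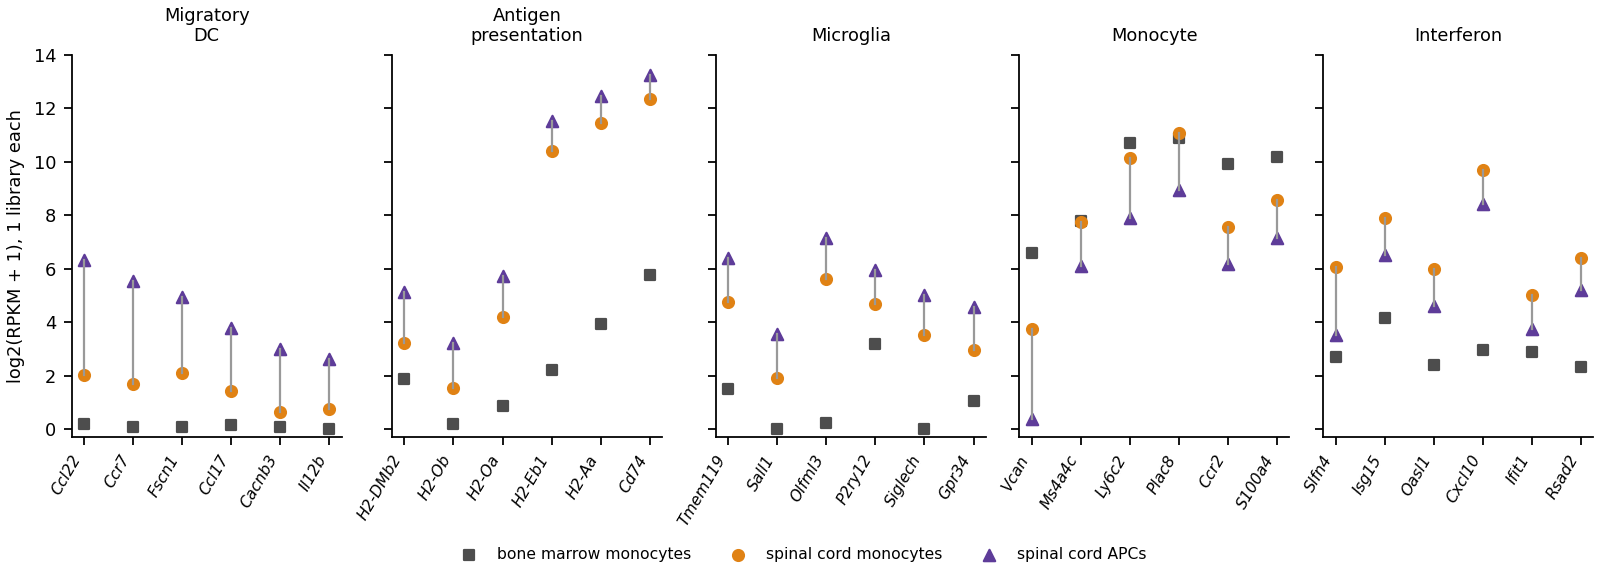
Levels of 6 genes of each of 5 groups in bone marrow monocytes (squares), spinal cord monocytes (circles) and spinal cord APCs (triangles), log2(RPKM + 1), 1 library each. Grey lines join the cord libraries. The dendritic cell (DC), antigen presentation and microglia genes shown were higher in APCs, and the monocyte and interferon genes shown were lower. Other listed genes past the filter went the other way. Of these, 7 of 28 migratory DC genes and 1 of 17 class II genes were below 0. Among classical monocyte genes 4 of 25 were above 0, and among interferon genes 1 of 55.

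Antigen presentation through class II was already high in cord monocytes and higher in APCs. Of 17 class II and processing genes, 16 had a positive difference, 5 were 2-fold higher and none 2-fold lower (median 0.59). Their summed RPKM was 19790 in cord monocytes and 34130 in APCs, beside 2872 in the bone marrow library. The largest differences were among accessory genes of low level. H2-DMb2, a subunit of the peptide exchange factor H2-DM, was at 3.22 and 5.14, 4.12-fold apart (3.64 to 4.69). H2-Ob and H2-Oa, the subunits of H2-O, which restrains H2-DM, were 4.26-fold (3.51 to 5.17) and 3.02-fold (2.73 to 3.36) higher. H2-Ob had an RPKM under 5 in cord monocytes and passed the filter through the APC library alone. The partner genes H2-DMb1 (7.06 and 7.40) and H2-DMa (8.92 and 9.18) were nearer to equal. Because H2-DMb1 and H2-DMb2 are close copies, the split of reads between them is uncertain. The classical chains H2-Eb1 and H2-Aa were at 10.39 and 11.52 and at 11.43 and 12.47. Ciita, the master activator of class II genes, was at 4.98 and 5.48, below 2-fold.

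None of 22 MHC class I presentation genes was 2-fold apart, and their median was -0.01. None of 23 costimulatory and checkpoint genes was 2-fold apart either (median -0.13). Over all genes past the filter 2.49% were 2-fold apart, so lists of this size would hold few such genes at that share. Cd80 was at 4.46 and 4.33, Cd86 at 6.60 and 6.44, and Cd40 at 6.10 and 5.72. Lag3, a class II-binding checkpoint receptor gene outside that list, was higher in APCs (3.41 and 5.11). A pair of nonclassical class I genes outside the class I list did differ: H2-Q1 was at 0.95 and 3.26 and H2-M2 at 1.75 and 3.41. Genes of the H2-Q family are near-identical copies, so the H2-Q1 value is uncertain.

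Microglia genes differed between the libraries as a group. Of 25 listed genes, 19 passed the filter. All 19 were above 0, 14 were 2-fold higher and none was lower (median 1.40). Among the higher ones Sall1, Adgrg1, Ltc4s and Gal3st4 had an RPKM under 5 in cord monocytes and passed through the APC library alone. No listed gene was at 0 in either cord library. Their summed RPKM was 707 in cord monocytes, 1649 in APCs and 315.5 in bone marrow monocytes. Tmem119, a membrane protein gene that marks microglia, was at 4.74 and 6.40, 3.24-fold apart (3.05 to 3.43). Sall1, a transcription factor gene of microglial identity, was at 1.92 and 3.57, 3.89-fold apart (3.48 to 4.37), and at 0.01 in bone marrow monocytes. The matricellular gene Olfml3 was at 5.63 and 7.16, the ADP receptor gene P2ry12 at 4.66 and 5.96, while the lectin gene Siglech differed by 1.47. The receptor gene Gpr34 differed by 1.58, Sparc, a matrix-binding protein gene, by 1.54, and the fractalkine receptor gene Cx3cr1 was at 5.57 and 7.08. Members with smaller differences were Il7r (0.37), which T cells also express, Tgfbr1 (5.54 and 6.10) and Selplg (5.18 and 5.76). Microglia markers were thus present in both sorts and higher in APCs. Their part in the class II, lysosome, lipid and complement differences was not tested.

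Border macrophage genes, of macrophages along meninges and vessels, were 2-fold higher in 6 of 15 cases (median 0.87). The list shares the C1q genes with complement genes. Pf4, Gas6 and the mannose receptor gene Mrc1 were 3.36-fold (2.41 to 4.79), 3.31-fold (2.84 to 3.88) and 3.06-fold (2.77 to 3.39) higher, all from levels near 2 in monocytes. Their RPKM was under 5 there, so they passed the filter through the APC library alone. C1qa, a subunit of the first complement component, was at 9.20 and 10.56, and C1qc at 9.27 and 10.44. The defining markers Lyve1 (0.02 and 0.02), Cd163 (0.16 and 0.14) and Folr2 (0.23 and 0.25) were near 0 in both libraries.

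Lysosome genes had many small differences in one direction. Of 30 lysosome and cathepsin genes, 26 were above 0 and 4 were 2-fold higher (median 0.48), while over all genes 4127 of 7499 were above 0. The protease gene Ctsd was at 10.45 and 11.49. Cst7, a cathepsin inhibitor gene, and Atp6v0d2, a proton pump subunit gene, differed by 1.06 and 1.04. Atp6v0d2 passed the filter through the APC library alone. The lipid handling list was less one-sided, with 18 of 29 genes above 0, 11 below and 4 at 2-fold higher (median 0.32). Apoe, the main lipoprotein gene of brain phagocytes, was at 12.30 and 13.36, and was among the most abundant transcripts of both libraries. Fabp4, Cd63 and Pltp were the others, at 2.59-fold (2.06 to 3.32), 2.23-fold (2.11 to 2.37) and 2.20-fold (2.05 to 2.37). Fabp4 also passed the filter through the APC library alone. Of 20 complement and Fc receptor genes, 15 were above 0, 5 below and 3 were 2-fold higher (C1qa, C1qc and Itgax, median 0.26). The high-affinity Fc receptor gene Fcgr1 was at 7.46 and 7.11.

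**Figure D4:**
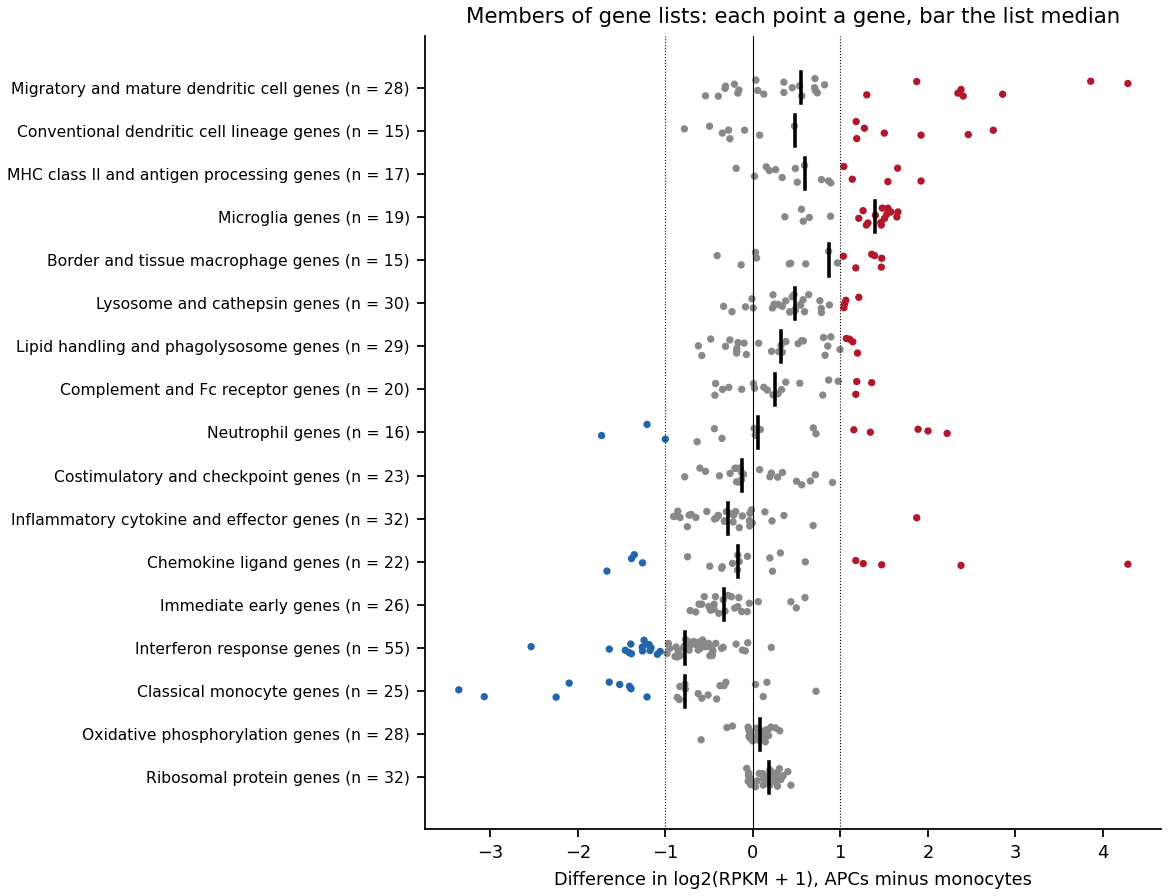
Difference in log2(RPKM + 1), APCs minus monocytes, for the members of 17 gene lists that passed the filter. Each point is a gene, the black bar is the list median, and dotted lines mark 2-fold. Medians run from 1.40 for microglia genes to -0.78 for classical monocyte genes, while ribosomal and oxidative phosphorylation genes lie near 0.

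On the other side, classical monocyte genes were lower in APCs. Of 25 past the filter, 9 were 2-fold lower, none was 2-fold higher and 21 were below 0 (median -0.78). Vcan, which encodes the matrix proteoglycan versican, was at 6.59 in bone marrow monocytes, 3.75 in cord monocytes and 0.39 in APCs. Ly6c2, the Ly6C surface marker, was at 10.69, 10.13 and 7.88, and Plac8 at 10.87, 11.06 and 8.96, so both were near the bone marrow level in cord monocytes. Ly6a2, a Ly6 family gene, was at 9.74, 6.29 and 3.03. Ly6 genes are close copies, and reads may be shared among them. The chemokine receptor gene Ccr2 was 2.68-fold lower (2.60 to 2.77), the calcium-binding protein gene S100a4 2.64-fold lower (2.50 to 2.79) and Ms4a4c 3.15-fold lower (3.02 to 3.29). Not all monocyte genes shared this. Lyz2 (13.18 and 13.30), F13a1 (7.23 and 7.26) and Fn1 (9.04 and 9.20) were nearly equal, as were the broad myeloid markers Itgam (8.41 and 8.41) and Cd14 (10.61 and 10.29). The macrophage markers Adgre1 (6.57 and 7.18) and Csf1r (9.02 and 9.50) were slightly higher in APCs. The monocyte label thus met high Ly6c2 and Ccr2 in its library, beside class II and C1q genes at high levels.

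Interferon response genes were nearly all below 0. Of 55 past the filter, 54 were below 0, 15 were 2-fold lower and none was 2-fold higher (median -0.77). The exception was Ifi44 (2.79 and 3.00). Slfn4, a Schlafen family gene, was at 2.71 in bone marrow monocytes, 6.06 in cord monocytes and 3.53 in APCs, 6.25-fold apart in the cord (5.85 to 6.68). Isg15, a ubiquitin-like protein gene, was at 4.15, 7.91 and 6.51, and Oasl1 at 2.40, 5.98 and 4.60. Cmpk2, a nucleotide kinase gene, was 3.00-fold lower (2.72 to 3.31), and its antiviral neighbour Rsad2 2.31-fold lower (2.22 to 2.41). The regulators differed less: Irf7 was at 7.72 and 6.89, Irf1 at 8.12 and 7.52 and Stat2 at 5.81 and 5.35. In 42 of the 55 genes, Slfn4, Isg15, Oasl1 and Rsad2 among them, the APC level lay between those of bone marrow and cord monocytes. In 12 it lay below both, 5 of them among the 15 that were 2-fold lower. Cmpk2, at 4.94, 4.44 and 2.98, and the antiviral GTPase gene Mx1, at 4.19, 4.76 and 3.58, were of the latter kind.

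The promoters of these genes were searched for the core of the interferon-stimulated response element (ISRE), a pair of GAAA runs with any 2 bases between, on both strands of a window from 250 bases before to 50 after the start of transcription. RefSeq gave such a window for 6069 of the 7499 genes. The motif was in 4.28% of those 6069 windows, in 22.2% of 54 windows of genes 2-fold lower and in 2.2% of 91 windows of genes 2-fold higher. Of the 12 lower genes with it, 6 were among the 13 listed interferon genes with a window (46.2%). The other 6 were among the 41 outside that list (14.6%). Genes outside the list can be interferon-induced too, so 14.6% is not a share for genes without an interferon response. Over all listed interferon genes past the filter the motif was in 25 of 42 windows (59.5%), so its share was no higher in those 2-fold lower. Among all 260 genes with the motif the median difference was -0.05, against 0.03 for the 5809 without it, so most genes with these letters in the window were close between the libraries. TTCNNNGAA, the core of STAT sites (GAS), was in 8.32% of all windows, 11.1% of lower and 8.79% of higher ones. For the form with 1 more base in the middle, the shares were 6.44%, 13% and 7.69%. TGACTCA, an AP-1 core, was in 4.98%, 14.8% and 6.59%. A pair of forms of the NF-kappaB site were in 0.428% of all windows and in none of the lower or higher ones.

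Examples of these matches are shown to let the letters be read beside the values. They were chosen after 10 genes had been examined, of which 9 had a window. ISRE matches were found in Isg15, Ifit1, Rsad2 and Cxcl10 but not in Ifi44, Slfn4 or Oasl1, although Slfn4 had the largest difference in the list. GAS was found in Ccl17 and not in its neighbour Ccl22. The Ccl17 window belongs to a start inside the gene's span (chr8:94809380-94812038), not to the first base of that span. The 250 bases before the start are printed 5′ to 3′ from RefSeq (GRCm38.p6), with matches in capitals. They lie at chr4:156200819-156201068 (minus strand) for Isg15, chr19:34640639-34640888 (plus) for Ifit1, chr5:92348890-92349139 (minus) for Cxcl10 and chr8:94810203-94810452 (plus) for Ccl17. Capitals mark ISRE in the first 3, where the 3 matches of Isg15 overlap, and GAS in Ccl17, where the match starts at position -99 from the start of transcription.
Isg15: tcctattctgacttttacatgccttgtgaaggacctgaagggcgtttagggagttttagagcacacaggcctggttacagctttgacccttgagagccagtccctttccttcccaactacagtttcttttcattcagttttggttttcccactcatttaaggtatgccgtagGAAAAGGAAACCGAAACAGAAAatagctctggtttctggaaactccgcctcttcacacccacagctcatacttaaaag
Ifit1: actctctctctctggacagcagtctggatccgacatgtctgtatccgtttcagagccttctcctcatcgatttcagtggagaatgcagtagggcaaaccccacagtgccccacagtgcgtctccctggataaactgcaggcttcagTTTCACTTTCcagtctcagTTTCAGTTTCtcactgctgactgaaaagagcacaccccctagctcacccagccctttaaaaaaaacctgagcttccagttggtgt
Cxcl10: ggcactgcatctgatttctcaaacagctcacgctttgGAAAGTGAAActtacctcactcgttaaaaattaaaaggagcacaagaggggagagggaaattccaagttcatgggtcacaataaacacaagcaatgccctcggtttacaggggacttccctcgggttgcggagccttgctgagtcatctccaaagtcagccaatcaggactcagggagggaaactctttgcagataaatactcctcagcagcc
Ccl17: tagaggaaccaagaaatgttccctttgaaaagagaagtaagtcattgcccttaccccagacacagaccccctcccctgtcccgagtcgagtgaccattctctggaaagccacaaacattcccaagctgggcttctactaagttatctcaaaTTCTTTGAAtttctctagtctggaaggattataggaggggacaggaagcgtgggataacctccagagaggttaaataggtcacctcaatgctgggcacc
A match describes the letters only and shows no binding.

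Chemokine ligand genes were divided. Of 22 past the filter, 5 were 2-fold higher in APCs and 4 were 2-fold lower (median -0.16). All 5 higher genes had an RPKM under 5 in cord monocytes and so passed the filter through the APC library alone. The 4 lower genes were above that RPKM in both libraries. The CCR4 ligand genes led the higher ones. Ccl22 (Entrez 20299) was at 0.21 in the bone marrow library, 2.03 in cord monocytes and 6.31 in APCs. Ccl17 (Entrez 20295), the chemokine in the title of the study, was at 0.16, 1.41 and 3.79. Both thus had their highest myeloid level in APCs, and Ccl22 was the more abundant per length. Ccl17 was 7.72-fold apart between the cord libraries (4.86 to 12.3), from an estimated 23 and 160 reads. The receptor gene of both ligands, Ccr4, was near 0 in both cord libraries (0.30 and 0.37), with an estimated 17 and 20 reads. Pf4, Ccl8 (1.74 and 3.00) and Cxcl13 (1.82 and 3.00), a B cell attractant, made up the rest. The lower genes were Ccl2, the main ligand of CCR2 (9.15 and 7.49), the related Ccl7 (5.94 and 4.55), and the interferon-induced ligands Cxcl10 (9.69 and 8.43) and Cxcl11 (4.17 and 2.82). Inflammatory ligands such as Ccl3 (9.22 and 9.05), Ccl5 (10.16 and 9.99) and Cxcl2 (10.91 and 10.85) were close. Among 16 receptors of migration, Ccr7 and Cx3cr1 were 2-fold higher, and Ccr2 and the leukotriene B4 receptor gene Ltb4r1 (5.49 and 4.32) were 2-fold lower.

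Inflammatory effector genes were mostly a little lower in APCs. Of 32, 27 were below 0, none was 2-fold lower and Il12b alone was 2-fold higher (median -0.28). Il18 was at 4.58 and 3.68, Acod1, which makes itaconate, at 8.97 and 8.09, and Hbegf at 4.37 and 3.51. Tnf (8.03 and 7.63) and Il6 (4.39 and 3.86) differed less. Over all genes past the filter 2.49% were 2-fold apart, so lists of 26 would hold few such genes. NF-kappaB pathway genes (26, median -0.20) and immediate early genes (26, median -0.33) had no member 2-fold apart. Jun, the leader of the latter, was at 9.43 and 8.71.

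For STAT5, the protein altered in these mice, both libraries held Stat5a and Stat5b at close levels (2.95 and 3.14, and 3.75 and 3.68). The receptor chains for GM-CSF, a growth factor that signals through STAT5, were at 7.58 and 7.09 for Csf2ra and 7.31 and 7.02 for Csf2rb. Of 24 GM-CSF and STAT5 response genes, Ccl22 and Ccl17 were 2-fold higher and Socs1, a feedback inhibitor gene, was 2-fold lower (5.63 and 4.58; list median -0.16). The feedback genes Cish (4.70 and 4.19) and Socs2 (2.29 and 3.00) differed in opposite directions. Among 40 transcription factors of monocyte and dendritic cell fate, Sall1 and Bhlhe41 (3.02 and 4.23) were 2-fold higher and Id1, an inhibitor of helix-loop-helix factors, was 2-fold lower (6.04 and 4.69).

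Matrix, eicosanoid and surface receptor genes also held members 2-fold apart. Matrix and protease genes had 5 higher and 2 lower of 23. Mmp12, the macrophage elastase gene, was at 3.89 and 5.75, 3.82-fold apart (3.59 to 4.06), and Timp2, a protease inhibitor gene, at 3.77 and 5.13. Of 17 retinoid, eicosanoid and tryptophan genes, 4 were higher and 1 lower. The higher ones included the enzyme genes Hpgds (2.67 and 4.01), for prostaglandin D2, Ltc4s (2.44 and 3.70), for leukotriene C4, and Ptgs1 (4.35 and 5.52), for prostaglandins. Rara, a retinoic acid receptor gene, was lower (4.46 and 3.36). Outside the lists, Dcstamp, a gene of cell fusion in osteoclasts and dendritic cells, was at 1.10 and 3.19, and Adamts1, a secreted protease gene, at 1.92 and 3.94. Cd72, a surface receptor gene of B cells and some myeloid cells, was at 2.96 and 5.04, and Sema7a, a membrane semaphorin gene, at 1.92 and 3.84. The natural killer receptor family gene Klrb1b was at 2.92 and 5.04. On the lower side, Pi16 was at 3.39 and 1.57, Plcb1, a phospholipase gene, at 2.70 and 1.15, and Gpat3, a glycerolipid enzyme gene, at 4.68 and 3.15.

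Markers of other cells that a sort could hold gave mixed values. Of 16 neutrophil genes past the filter, 5 were 2-fold higher and 3 lower (median 0.06), with a summed RPKM of 1140 in monocytes, 1390 in APCs and 8238 in bone marrow monocytes. The higher ones were Ltf (2.63 and 4.85), Ngp (5.06 and 6.95), Camp (3.82 and 4.98), Mmp9 (1.55 and 2.89) and Retnlg (3.18 and 5.18). Of these, Mmp9 passed the filter through the APC library alone. Prtn3, a granule protease gene, was lower (4.52 and 2.79), as were Cd177 (4.07 and 2.86) and Wfdc21. S100a8, the most abundant of the list in monocytes, was at 8.83 and 8.84. Of 26 T cell genes only Il7r, Ifng and Thy1 passed, the summed RPKM was 94.8 and 111, and Cd3e was at 2.23 and 2.07. The B cell list had Blnk alone past the filter (3.42 and 4.77), and Pax5 (0.17 and 0.05) was near 0. In natural killer genes Klrd1 differed, while Ncr1 was at 0.11 and 0.08. Of 13 plasmacytoid dendritic cell genes 4 passed, and Lag3 and Siglech, both named above, were 2-fold higher (median 0.81). Of 11 mast cell and basophil genes only Hdc passed (2.96 and 2.61). Kit, a growth factor receptor gene that mast cells and some dendritic cells express, was below the filter and higher in APCs (0.90 and 2.54). The defining mast cell genes Fcer1a (0.05 and 0.06) and Ms4a2 (0 and 0) were at or near 0. Nervous tissue lists moved in both directions. The summed RPKM of 15 oligodendrocyte and myelin genes was 166.1 in monocytes and 276.8 in APCs, of which the transferrin gene Trf made up 123.8 and 233.1. Trf was also at a level of 6.07 in bone marrow monocytes. The myelin glycoprotein gene Mag was 1.89-fold higher (1.56 to 2.29), while Mog was at 0.34 and 0.19. The 10 astrocyte genes summed to 30.7 and 48.2, led by Aldoc (4.34 and 5.18), the only one past the filter, while Gfap, the defining filament gene, was at 2.48 and 1.81. No neuron gene passed. The erythroid genes summed to an RPKM of 49.2 in monocytes and 25.5 in APCs, led by Hbb-bs (5.18 and 4.21). The part of such cells in the genes above was not tested.

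Some genes 2-fold apart lay near each other. With gaps of up to 250 kb, 53 of the 187 formed 20 clusters, of which 14 held 1 direction and 6 held both. How many of any 187 genes past the filter would do so was not computed. Neighbours in such clusters are often related copies, so shared reads may tie their values. On chromosome 1, 9 interferon-inducible Ifi200 family genes from Ifi213 to Ifi205 were all below 0, between -0.79 and -1.24, and 5 were 2-fold lower. On chromosome 11, 7 Schlafen genes were below 0, from Slfn10-ps (-0.51) to Slfn4 (-2.53). Close by, Ccl2 (-1.67) and Ccl7 (-1.39) were lower while Ccl12 (0.19) and Ccl8 (1.26) were not. The Ms4a genes of chromosome 19 were also mixed: Ms4a8a differed by -1.43, Ms4a7 by 1.03 and Ms4a4c by -1.64. In the class II region of chromosome 17 the higher genes H2-Oa, H2-DMb2, H2-Ob, H2-Aa and H2-Eb1 enclosed the class I processing genes Psmb9, Tap1, Psmb8 and Tap2, which lay between -0.08 and -0.20. Ccl22 (chr8:94745684-94751388, GRCm38) and Ccl17 (chr8:94809380-94812038) formed a cluster with the microglia gene Adgrg1, with 3 genes between that were under 2-fold. P2ry10 and its copy P2ry10b differed in opposite directions (2.09 and -1.12).

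**Figure D5:**
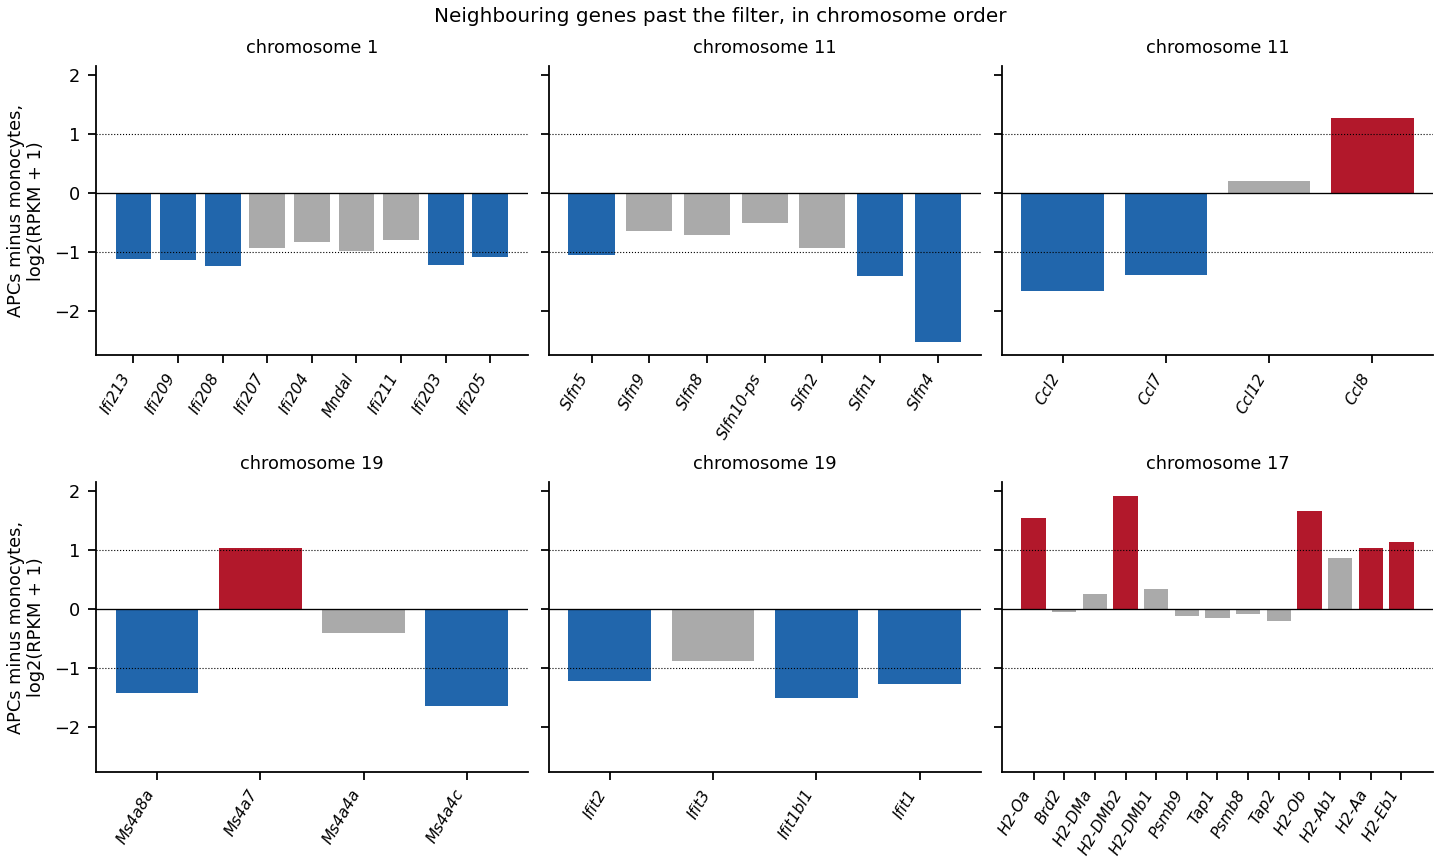
Difference in log2(RPKM + 1), APCs minus monocytes, for genes past the filter in 6 clusters of neighbouring genes, in chromosome order. Dotted lines mark 2-fold. The Ifi200, Schlafen and Ifit clusters hold lower genes only, the Ccl2 and Ms4a clusters hold both directions, and the class II panel is drawn from H2-Oa on, without Daxx (-1.01) at its other end.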

How the data were processed

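The KAPA mRNA HyperPrep kit was used for the libraries, per the labels' protocols. Subread, featureCounts and mouse build mm10 are named in the submitters' processing notes, without versions or an annotation. In the deposited table each library has 1 column of log2(RPKM + 1) values. No header gives this unit, which was read from the values. Multiplied by gene length in kb, base 2 gave library sums of 1029673 to 1071111, near the 1000000 that RPKM gives. In base e the sums were 7809406 to 14736224. Lengths came from GENCODE vM21 transcripts paired with curated RefSeq entries. This choice was made after lengths from all transcripts had given 1566953 to 1677022, and it sets the read totals and intervals but not the differences. The APC column carries an abbreviation for monocyte-derived cells in its name and was matched by it.

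Genes without reads, listed at 0.0001, were set to 0. Symbols matched for 20857 genes, and 216 kept the deposited symbol. Read totals were estimated from the step of low values, of which 74.5% to 76.7% were whole to within 0.1 reads (20% if spread evenly). Intervals are Clopper-Pearson, 95%. Computation used Python 3.11.15, pandas 2.3.3 and scipy 1.17.1, and the steps were tested on simulated data.

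Members, the 42 gene lists and all rules were chosen with earlier results of these data known. Named were the 24 genes 4-fold apart (less 1 antigen receptor segment), the 20 largest per direction at 2- to 4-fold, up to 4 per list and 26 chosen genes. Some genes that this rule names are not reported here. Other genes named, the 250 kb gap and the 10 promoters examined were chosen after their values were seen.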

Additional observations from a re-analysis of the deposited data

How the results depend on the processing

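With 1 library per population the replicate error of the values cannot be estimated. Counting error, which depth sets, matters most for genes of few reads. Counts of 2-fold genes moved with the treatment of low values. With a pseudocount of 5 in place of 1, 59 genes were 2-fold higher, 41 were 2-fold lower and 3 were 4-fold higher. With an RPKM of at least 1 in either library, or with no filter, 176 were 2-fold higher. With an RPKM of at least 20, 52 were 2-fold higher against 50 lower, and 8 were 4-fold higher, so the excess of higher genes rests on genes of low level. Centring on the median gene gave 112 higher and 79 lower. At an RPKM of at least 1, 7 list medians moved. The dendritic cell lineage median went from 0.48 to 1.16, plasmacytoid from 0.81 to 0.22, natural killer to 0.04, B cell to 0.75 and astrocyte to 0.29. The mast cell median (-0.35 to 0.65) and the oligodendrocyte median (0.44 to -0.0039) changed sign. No paired analysis was possible because each population has 1 library.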

Other observations

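Housekeeping programs were close between the cord libraries. Over all genes past the filter 2.49% were 2-fold apart, so lists of 18 to 32 genes would hold few such genes. Of 32 ribosomal protein genes none was 2-fold apart (median 0.18), and the same held for 28 oxidative phosphorylation genes (0.08), 28 glycolysis and hypoxia genes (-0.11) and 18 cholesterol and fatty acid synthesis genes (-0.09). Fads1, a fatty acid desaturase gene, was at 2.93 and 3.93 in monocytes and APCs. Of 36 cell cycle genes, 11 passed the filter (median 0.27), and their summed RPKM of 187 in cord monocytes and 206 in APCs compares with 1962 in bone marrow monocytes. In the stress list the chaperone genes Hspa1a (9.43 and 8.66) and Hspa1b (9.21 and 8.55), close copies of each other, were lower in APCs, and Hspb1 was higher (2.69 and 3.64). Asns, an asparagine synthesis gene, was the list's only gene 2-fold apart (3.47 and 2.39).

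Below the filter, 2801 genes had an RPKM of at least 1 in either library. Of these, 60 were 2-fold higher in APCs, 13 were 2-fold lower and none was 4-fold apart on the log2(RPKM + 1) scale. The added 1 shrinks differences at such low levels, and ratios of RPKM itself could pass 4-fold. By that ratio Cd209a was 12.5-fold higher (6.17 to 27.4) and Serpinb10 8.10-fold lower (4.48 to 17.3). Among the 60 higher genes were Cd209a (0.29 and 1.93) and Klri1 (0.12 and 1.40), both of the dendritic cell lineage list. Kit (0.90 and 2.54), which is on that list and on the mast cell list, was another. The 8 migratory dendritic cell genes 2-fold higher in APCs had mixed levels in the 10 Th17 libraries, wild-type and DKI, some labelled with CCL17. There Ccr7 was at 5.81 to 7.55, Serpinb6b at 6.68 to 7.45, Serpinb9 at 5.18 to 5.91 and Cacnb3 at 3.09 to 4.41, all above their APC levels. Fscn1 (1.65 to 4.14) and Ccl22 (2.34 to 5.38) lay below theirs, and Ccl17 (0.18 to 0.74) and Il12b (0 to 0.49) were near 0.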
